A study of Mus musculus with 8 samples.

Results

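Expression of 10 genes of the YAP/TEAD pathway was followed in mammary spheroids of a transformed and a wildtype mouse line, each with and without fine particulate matter. The genes are the co-activators Yap1 and Wwtr1, the DNA-binding factor Tead1, the regulators Lats2 and Ajuba, and the targets Ccn1, Ccn2, Ankrd1, Amotl2 and Axl. They were taken by symbol from a count table of 25413 genes, and all 10 passed the filter on low counts, as did 13716 genes in all. RNA was sequenced from 8 libraries of spheroids, which are rounded aggregates of cells in culture, with 2 libraries in each of 4 groups. The groups were EpH4-AS with PM2.5 and untreated EpH4-AS, a line whose genotype is given as AS-transformed and which is described as malignantly transformed, and EpH4 with PM2.5 and untreated EpH4, the line whose genotype is given as WT. PM2.5 is airborne particulate matter of the fine size class. The labels used here give neither its dose and time nor how the AS line was made. They also do not state that replicate libraries are independent cultures, so p-values measure library-to-library spread, which may be technical.

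YAP (gene Yap1) and TAZ (gene Wwtr1) are transcriptional co-activators without a DNA-binding domain of their own. They switch on genes through the TEAD factors when they are in the nucleus. Of the Hippo kinases, MST1/2 activate LATS1/2, and LATS1/2 phosphorylate YAP and TAZ and so hold them in the cytoplasm. Angiomotins bind YAP and TAZ at junctions, and LIM proteins such as Ajuba restrain LATS. Ccn1, Ccn2 and Ankrd1 are the targets most often read as a sign of YAP/TAZ activity, and Amotl2 and Lats2 are targets that feed back on the pathway as inhibitors. In mammary epithelium the pathway is known for sensing cell density, stiffness and attachment. Messenger RNA does not show the phosphorylation or place of YAP and TAZ.

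TEAD factors bind the sequence CATTCC, and the promoters of the members were searched for it. The stretches printed are the 250 bases before the RefSeq start of 5 targets or regulators on which the results turn, shown so that the place and strand of each match can be seen. They are written 5′ to 3′ along the gene on GRCm38.p6, with each match of CATTCC, or of GGAATG on the other strand, in capitals. Axl (chr7:25788734-25788983, minus strand) and Ajuba (chr14:54577662-54577911, minus strand) were higher with PM2.5 in EpH4. Amotl2 (chr9:102717554-102717803, plus strand) was lower with PM2.5 in EpH4-AS. Ccn1 (chr3:145649986-145650235, minus strand) and Ankrd1 (chr19:36119845-36120094, minus strand) were lower in EpH4-AS than in EpH4.
Axl: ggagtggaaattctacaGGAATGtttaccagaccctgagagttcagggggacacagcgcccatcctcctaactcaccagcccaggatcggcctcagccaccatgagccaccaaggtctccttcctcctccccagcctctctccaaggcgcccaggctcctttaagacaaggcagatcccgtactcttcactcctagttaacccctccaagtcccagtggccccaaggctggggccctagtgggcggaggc
Ajuba: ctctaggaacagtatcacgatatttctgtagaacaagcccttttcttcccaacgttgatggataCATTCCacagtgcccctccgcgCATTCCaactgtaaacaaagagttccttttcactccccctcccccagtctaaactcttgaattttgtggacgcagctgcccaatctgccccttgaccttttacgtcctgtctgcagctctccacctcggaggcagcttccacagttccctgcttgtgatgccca
Amotl2: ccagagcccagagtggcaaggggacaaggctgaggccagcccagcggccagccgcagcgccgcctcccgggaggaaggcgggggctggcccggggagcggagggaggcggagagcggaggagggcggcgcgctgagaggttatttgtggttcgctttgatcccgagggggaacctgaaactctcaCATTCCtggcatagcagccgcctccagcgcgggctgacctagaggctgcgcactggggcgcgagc
Ccn1: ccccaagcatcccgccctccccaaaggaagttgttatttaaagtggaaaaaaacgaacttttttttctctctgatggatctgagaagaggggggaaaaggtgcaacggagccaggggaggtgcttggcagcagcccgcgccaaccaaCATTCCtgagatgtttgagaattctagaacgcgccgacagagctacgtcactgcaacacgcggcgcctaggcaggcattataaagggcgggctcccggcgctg
Ankrd1: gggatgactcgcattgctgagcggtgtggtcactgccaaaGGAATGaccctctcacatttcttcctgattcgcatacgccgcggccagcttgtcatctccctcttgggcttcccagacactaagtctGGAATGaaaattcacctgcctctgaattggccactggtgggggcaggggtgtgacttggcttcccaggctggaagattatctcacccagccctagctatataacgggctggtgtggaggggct
Counted from the start site, the match began at base -233 in Axl, -65 in Amotl2 and -103 in Ccn1. Ajuba held matches at -186 and -164, and Ankrd1 at -210 and -123. RefSeq entries of 300 bases, with 250 before and 50 after the start, were at hand for 8 of the 10 members (Ccn1, Ankrd1, Amotl2, Yap1, Wwtr1, Lats2, Ajuba and Axl). Each of these 8 had at least 1 entry with a match, 9 of 10 entries in all, and the 2 entries of Wwtr1 overlap and share theirs. Of 32851 mouse promoters of that length, 14.7% held a match on either strand. The AP-1 sequence TGANTCA was in none of the members' 10 entries and in 7.81% of all promoters, and the CArG box bound by SRF was in none of them and in 1.63% of all. At such shares, 10 entries are too few to show whether either sequence is rarer in the members. A match is a description of letters and not a bound site.

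Total counts ran from 15393256 to 27765982 per library, with the 4 EpH4-AS libraries below the 4 EpH4 libraries. Both lines are labelled as mammary epithelial cells, but the defining epithelial markers were at or near 0. Of 12 epithelial markers, 1 reached 1 CPM in both libraries of a group, Krt7 in EpH4-AS and Krt14 in EpH4, and Krt19 and Cldn4 had no count in any library. Their summed level was 2.16 and 2.497 CPM (read counts scaled to library size) in EpH4-AS with PM2.5, 2.29 and 2.59 CPM in untreated EpH4-AS, 9.18 and 9.78 CPM in EpH4 with PM2.5 and 3.74 and 3.70 CPM in untreated EpH4. The sum of 10 fibroblast and mesenchymal markers was 6575 to 7571 CPM in EpH4-AS and 14932 to 17096 CPM in EpH4. The sum of 6 adipocyte markers was 1113 to 1423 CPM in EpH4-AS and 142 to 171 CPM in EpH4. Of these 6, 4 reached 1 CPM in both libraries of each EpH4-AS group, 1 in EpH4 with PM2.5 and 2 in untreated EpH4. Adipoq had no count in either EpH4 group or in EpH4-AS with PM2.5. Of 4 endothelial markers, none reached 1 CPM, and the 5 blood cell markers summed to 37.5 to 41.2 CPM in EpH4-AS and 172 to 220.1 CPM in EpH4. The share of gene reads that lay outside exons was 3.39% to 3.59% in EpH4-AS and 11.3% to 12.5% in EpH4, and its median over the 10 members was 1.69% to 2.54% in EpH4-AS and 8.28% to 10.99% in EpH4. Mitochondrial genes took 0.219% to 0.302% of counts in EpH4-AS and 2.21% to 5.03% in EpH4. The part of these differences in the results between the lines was not tested.

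Levels are given as CPM after TMM scaling, and log2 fold changes with the standard error (SE) of the fit. P-values are from edgeR's quasi-likelihood test, adjusted by Benjamini-Hochberg over all genes tested, and a gene was called at an adjusted p below 0.05. In bulk RNA, fewer cells of a type and less RNA per cell cannot be told apart, and this holds for every result that follows.

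**Figure D1:**
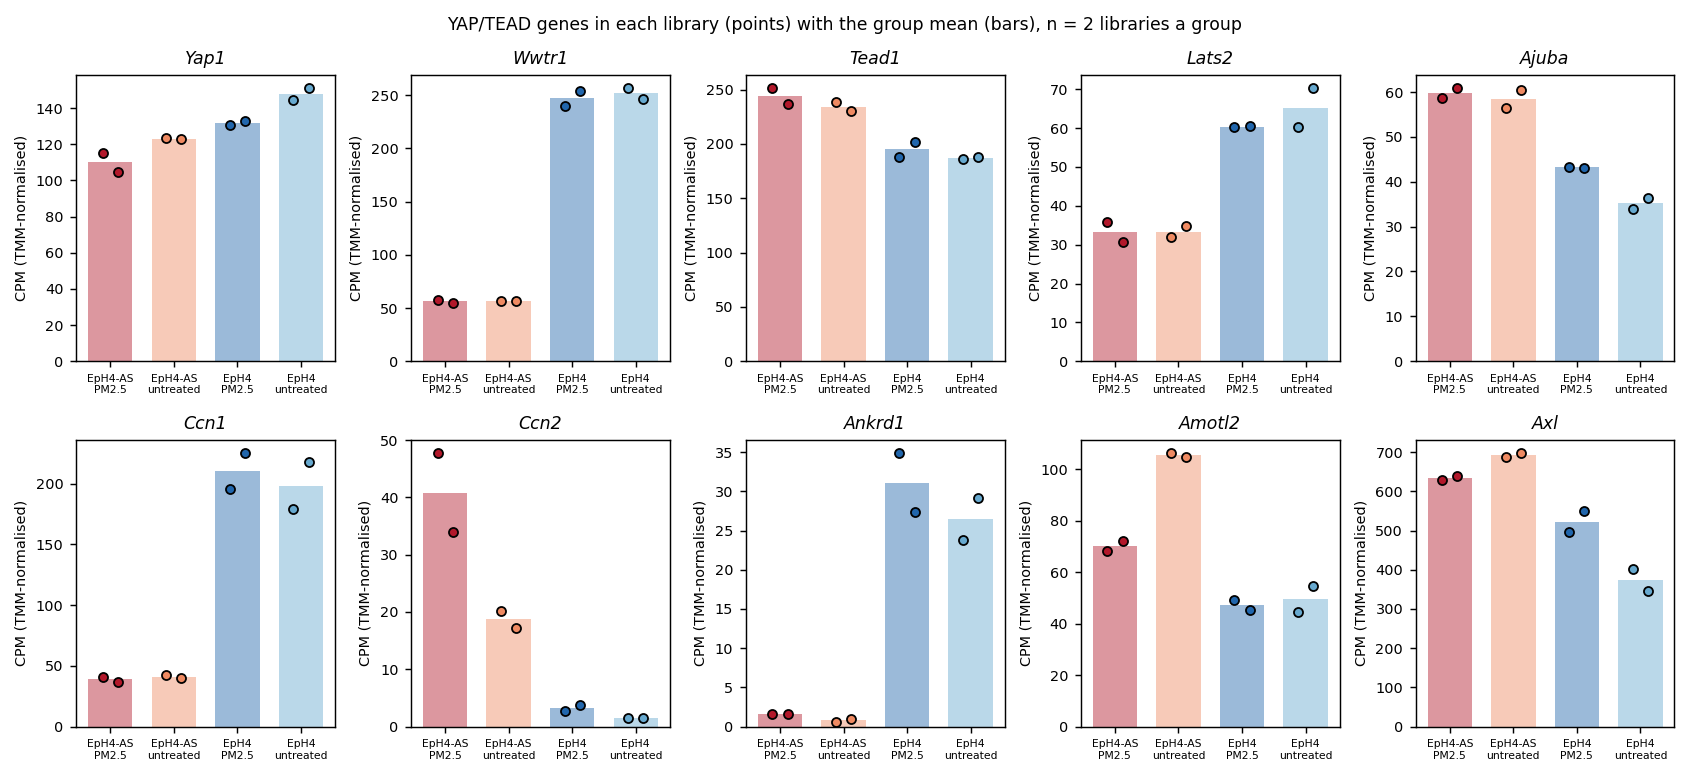
TMM-normalised CPM of the 10 genes in each of the 8 libraries (points) with the mean of the 2 libraries of a group (bars), each panel on its own linear axis from 0. Wwtr1, Ccn1, Ankrd1, Lats2 and Yap1 are lower in every EpH4-AS library than in every EpH4 library. Ccn2, Tead1, Amotl2, Ajuba and Axl are higher in every EpH4-AS library. Within EpH4-AS, Amotl2 is lower with PM2.5.

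In EpH4-AS, the matricellular protein gene Ccn2 rose with PM2.5 and Amotl2, an angiomotin that binds YAP, fell, while the other 8 members did not pass the test. Ccn2 (ENSMUSG00000019997, chromosome 10, 24471340 to 24474581, plus strand, GRCm39) was at 47.7 and 34.0 CPM in EpH4-AS with PM2.5 and at 20.2 and 17.3 CPM in untreated EpH4-AS. Both exposed libraries were above both untreated ones. The fold change was 2.17 (log2 1.12, SE 0.15, adjusted p = 0.00027). Amotl2 (ENSMUSG00000032531, chromosome 9, 102593871 to 102610617, plus strand) was at 68.2 and 72.0 CPM in EpH4-AS with PM2.5, against 106 and 105 CPM in untreated EpH4-AS. The groups did not overlap, and the log2 fold change was -0.59 (SE 0.08, adjusted p = 0.000323). Of the 10 members, 1 was higher, beside 6.39% of all genes tested, and 1 was lower, beside 4.75% of all genes tested. The adipocyte marker sum was lower in the same comparison, at 1121 and 1113 CPM in EpH4-AS with PM2.5 and 1423 and 1381 CPM in untreated EpH4-AS. Only 4 of the 6 markers reached 1 CPM in both libraries of either group. Fibroblast and mesenchymal markers summed to 6575 and 7230.0 CPM in EpH4-AS with PM2.5 and 7433 and 7571 CPM in untreated EpH4-AS. The part of either list in the result was not tested.

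The fold changes of the other members were smaller or rested on few counts. Yap1 (ENSMUSG00000053110, chromosome 9, 7932000 to 8004597, minus strand) was at 115 and 105 CPM in EpH4-AS with PM2.5 and at 124 and 123 CPM in untreated EpH4-AS, without overlap, and did not pass (log2 -0.16, SE 0.06, adjusted p = 0.0823). Ankrd1, an ankyrin repeat protein, had 27 and 29 counts in EpH4-AS with PM2.5 and 10 and 16 counts in untreated EpH4-AS, with a log2 fold change of 0.97 (95% interval 0.04 to 1.90, adjusted p = 0.161). Axl, a receptor tyrosine kinase, was at 628 and 638 CPM in EpH4-AS with PM2.5 and at 687 and 697 CPM in untreated EpH4-AS (log2 -0.13, SE 0.07, adjusted p = 0.272). The intervals of the remaining 5 were centred close to 0. They were -0.31 to 0.15 for Ccn1, -0.14 to 0.12 for Wwtr1, -0.06 to 0.17 for Tead1, -0.21 to 0.20 for Lats2 and -0.10 to 0.17 for Ajuba, all on the log2 scale. Ccn2 and Amotl2 were called in each of 17 alternative fits. Over all genes, the split of higher and lower calls turned with the scaling, with 877 higher and 652 lower after TMM but 715 higher and 916 lower by library totals, where Yap1 was called lower (log2 -0.19, adjusted p = 0.0388). Yap1 was called lower in 5 of the 17 alternative fits. Beside library totals, these included a fit to 2 groups only (adjusted p = 0.0178). Limma-trend called it on log2(RPKM + 1) (adjusted p = 0.0443) and on log2(RPKM + 0.1) (adjusted p = 0.0483). It was also called lower without untreated EpH4 replicate 2 (log2 -0.17).

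In EpH4, Ccn2, Axl and the LIM protein gene Ajuba rose with PM2.5, and Yap1 was called lower in a result that most alternative fits did not keep. Ccn2 was at 2.67 and 3.82 CPM in EpH4 with PM2.5 and at 1.53 and 1.43 CPM in untreated EpH4, which is 70 and 93 counts against 42 and 36 counts. Its fold change was 2.17 (log2 1.12, SE 0.30, adjusted p = 0.0107). Axl (ENSMUSG00000002602, chromosome 7, 25456698 to 25488130, minus strand) was at 496 and 549.6 CPM in EpH4 with PM2.5, against 401 and 347 CPM in untreated EpH4. Both exposed libraries were above both untreated ones, a 1.40-fold change (log2 0.48, SE 0.07, adjusted p = 0.000211). Ajuba (ENSMUSG00000022178, chromosome 14, 54804929 to 54815015, minus strand) was at 43.4 and 43.2 CPM in EpH4 with PM2.5 and at 34.0 and 36.3 CPM in untreated EpH4. The groups were separate, and the change was 1.23-fold (log2 0.30, SE 0.06, adjusted p = 0.00302). Yap1 was at 131 and 133 CPM in EpH4 with PM2.5 and at 144 and 151 CPM in untreated EpH4 (log2 -0.17, SE 0.05, adjusted p = 0.0346). The Yap1 call was lost in 10 of 18 alternative fits, among them DESeq2's Wald test (adjusted p = 0.0887), a fit to 2 groups only (adjusted p = 0.0765), and limma-trend on log2(RPKM + 1) (adjusted p = 0.0503) and on log2(RPKM + 0.1) (adjusted p = 0.0556). Of the 10 members, 3 were higher, beside 14.3% of all genes tested, and 1 was lower, beside 12.9% of all genes tested. The epithelial marker sum differed too, at 9.18 and 9.78 CPM in EpH4 with PM2.5 and 3.74 and 3.70 CPM in untreated EpH4, mostly Krt14. Fibroblast and mesenchymal markers summed to 14932 and 15478 CPM in EpH4 with PM2.5 and 17096 and 16650 CPM in untreated EpH4, and mitochondrial genes took 4.23% and 5.03% of counts in EpH4 with PM2.5 and 2.72% and 2.21% in untreated EpH4. The part of these differences in the result was not tested.

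The remaining 6 members did not pass in EpH4. Ccn1 (ENSMUSG00000028195, chromosome 3, 145352731 to 145355736, minus strand), a matricellular protein like Ccn2, was at 196 and 225 CPM in EpH4 with PM2.5 and at 179 and 218 CPM in untreated EpH4, and the groups overlapped (log2 0.09, 95% interval -0.09 to 0.26). Ankrd1 was at 34.8 and 27.4 CPM in EpH4 with PM2.5, overlapping the 23.8 and 29.1 CPM of untreated EpH4 (log2 0.24, interval -0.01 to 0.49). Amotl2 was at 49.1 and 45.4 CPM in EpH4 with PM2.5, within the 44.7 and 54.7 CPM of untreated EpH4. The intervals were -0.25 to 0.10 for Amotl2, -0.13 to 0.08 for Wwtr1, -0.05 to 0.18 for Tead1 and -0.28 to 0.06 for Lats2 on the log2 scale. Of the untreated EpH4 libraries, replicate 2 was above replicate 1 for Ccn1, Amotl2 and Lats2, and several calls depended on single libraries. When the PM2.5 replicate 2 of EpH4 was left out, Ccn2 was not called (log2 0.84, adjusted p = 0.1095) and Ankrd1 was called higher (log2 0.396). Yap1 was not called without untreated EpH4 replicate 2, without either PM2.5 library of EpH4 or without either untreated EpH4-AS library (adjusted p 0.0634 to 0.157). Without untreated EpH4 replicate 2, Ccn1 (log2 0.23) and Ankrd1 (log2 0.39) were called higher. Without untreated EpH4 replicate 1, Amotl2 (log2 -0.21) and Lats2 (log2 -0.22) were called lower. Axl and Ajuba were called in each of 18 alternative fits.

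**Figure D2:**
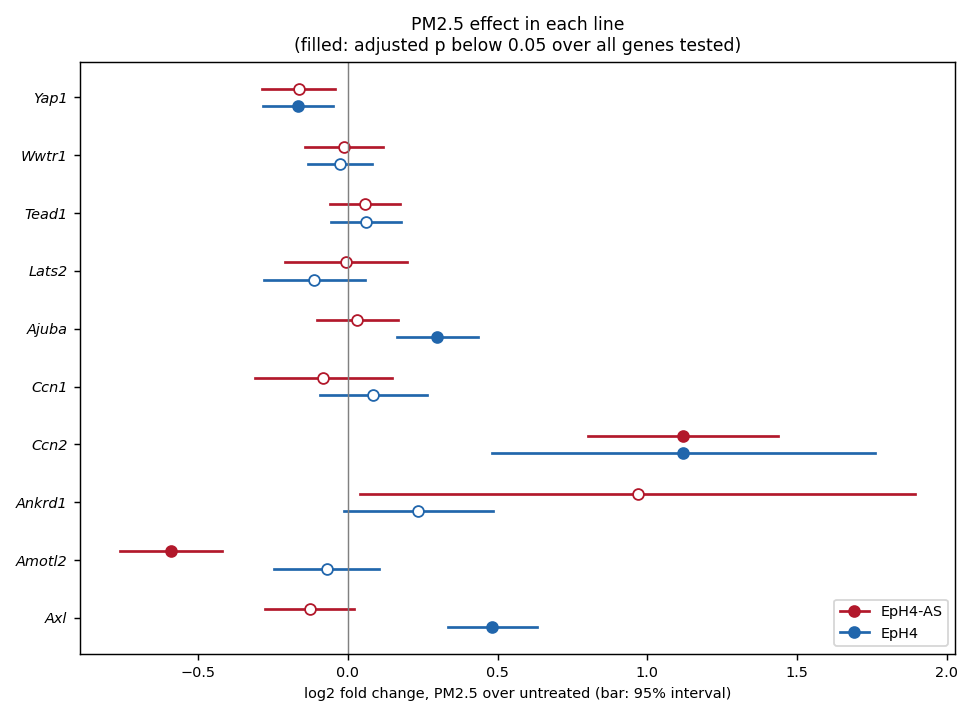
Log2 fold change of PM2.5 over untreated for each of the 10 genes in EpH4-AS (red) and EpH4 (blue), with 95% intervals from the fit and filled points for an adjusted p below 0.05. Ccn2 sits at 1.12 in both lines, while Axl is at -0.13 in EpH4-AS and at 0.48 in EpH4, and Amotl2 at -0.59 in EpH4-AS and -0.07 in EpH4.

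The interaction, which is the PM2.5 effect in EpH4-AS minus that in EpH4, tested whether the lines responded differently. Axl differed by log2 -0.61 (SE 0.10, adjusted p = 0.00105) and Amotl2 by -0.52 (SE 0.11, adjusted p = 0.00801). So 2 of 10 members were called lower, beside 6.49% of all genes tested, and 0 of 10 higher, beside 7.6% of all genes tested, with 0 higher at an unadjusted p below 0.05 and 0 by DESeq2 as well. Over the alternatives the adjusted p of Axl ran up to 0.0179, and Axl was called in all 16. Amotl2 was not called without untreated EpH4-AS replicate 1 (adjusted p = 0.0652), without untreated EpH4-AS replicate 2 (adjusted p = 0.055) or without EpH4-AS PM2.5 replicate 1 (adjusted p = 0.0548). Ajuba, higher with PM2.5 in EpH4 and at an estimate near 0 in EpH4-AS, had a difference of -0.27 (95% interval -0.46 to -0.08, adjusted p = 0.0603) that passed by library totals (adjusted p = 0.0385) and without untreated EpH4 replicate 2 (adjusted p = 0.0393). For Ccn2 the difference was close to 0, with a 95% interval of -0.71 to 0.71, wide enough to hold a 1.64-fold difference in either direction. For Yap1, Wwtr1 and Tead1 the intervals were narrower, at -0.17 to 0.17, -0.16 to 0.18 and -0.17 to 0.16. Those of Ccn1, Ankrd1 and Lats2 were -0.46 to 0.12, -0.23 to 1.69 and -0.16 to 0.37.

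Between the lines, all 10 members differed, and the co-activators differed unequally. Wwtr1 (ENSMUSG00000027803, chromosome 3, 57363070 to 57483331, minus strand) was at 56.7 CPM in both untreated EpH4-AS libraries, against 257 and 247 CPM in untreated EpH4. That is 4.44-fold lower in EpH4-AS (log2 -2.15, SE 0.06, adjusted p = 4.5e-14). With PM2.5 it was at 57.7 and 54.8 CPM in EpH4-AS and at 239.9 and 254 CPM in EpH4. Yap1 was lower in EpH4-AS by log2 -0.26 (SE 0.06, adjusted p = 0.000431) untreated and by -0.26 with PM2.5 (adjusted p = 0.000488). This difference was not called with limma-trend on log2(RPKM + 1), at -0.06 (adjusted p = 0.242) untreated and -0.09 (adjusted p = 0.0951) with PM2.5. Nor was it called on log2(RPKM + 0.1), at -0.06 (adjusted p = 0.243) untreated and -0.10 (adjusted p = 0.0942) with PM2.5. RPKM scaling also moved the median of all genes between the untreated lines, to 0.14 there against -0.05 in the count fit.

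Per length of exons (RPKM, as the authors deposited it), Yap1 was at 25.3 and 23.2 in EpH4-AS with PM2.5, 27.7 and 27.8 in untreated EpH4-AS, 25.6 and 26.3 in EpH4 with PM2.5 and 28.7 and 29.3 in untreated EpH4. Wwtr1 was at 11.1 and 10.7 RPKM in EpH4-AS with PM2.5, 11.2 and 11.3 RPKM in untreated EpH4-AS, 41.3 and 44.4 RPKM in EpH4 with PM2.5 and 44.9 and 42.1 RPKM in untreated EpH4. Yap1 was therefore the more abundant of the pair in EpH4-AS, at 2.48 and 2.46 times the Wwtr1 level in untreated libraries, and the less abundant in EpH4, at 0.64 and 0.696 times. With PM2.5 the ratio was 2.27 and 2.18 in EpH4-AS and 0.619 and 0.593 in EpH4. Their summed level was 38.8 and 39.2 RPKM in untreated EpH4-AS and 73.6 and 71.5 RPKM in untreated EpH4. With PM2.5 it was 36.4 and 33.9 RPKM in EpH4-AS and 66.9 and 70.7 RPKM in EpH4.

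Tead1 (ENSMUSG00000055320, chromosome 7, 112278525 to 112506014, plus strand) was modestly higher in EpH4-AS, at 238 and 230.2 CPM in untreated EpH4-AS and 186 and 188 CPM in untreated EpH4 (log2 0.33, SE 0.05, adjusted p = 4.74e-05). Tead2, its paralogue, was at 1.14 and 1.26 CPM in untreated EpH4-AS, against 59.3 and 51.9 CPM in untreated EpH4 (log2 -5.53, SE 0.23, adjusted p = 4.04e-14). The makeup of the TEAD family thus differed between the lines. Tead1 gave 65.7% and 63.9% of the summed TEAD RPKM in untreated EpH4-AS and 40.3% and 42.2% in untreated EpH4, while Tead2 gave 0.936% and 1.04% in untreated EpH4-AS and 38.1% and 34.7% in untreated EpH4. Tead3 gave 28.7% and 29.4% in untreated EpH4-AS and 16.8% and 18.2% in untreated EpH4, and Tead4 gave 4.67% and 5.66% in untreated EpH4-AS and 4.89% in both untreated EpH4 libraries. With PM2.5, Tead2 rose in EpH4 (log2 0.36, SE 0.07, adjusted p = 0.00217), as did Tead4 (log2 0.64, SE 0.13, adjusted p = 0.00296).

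**Figure D3:**
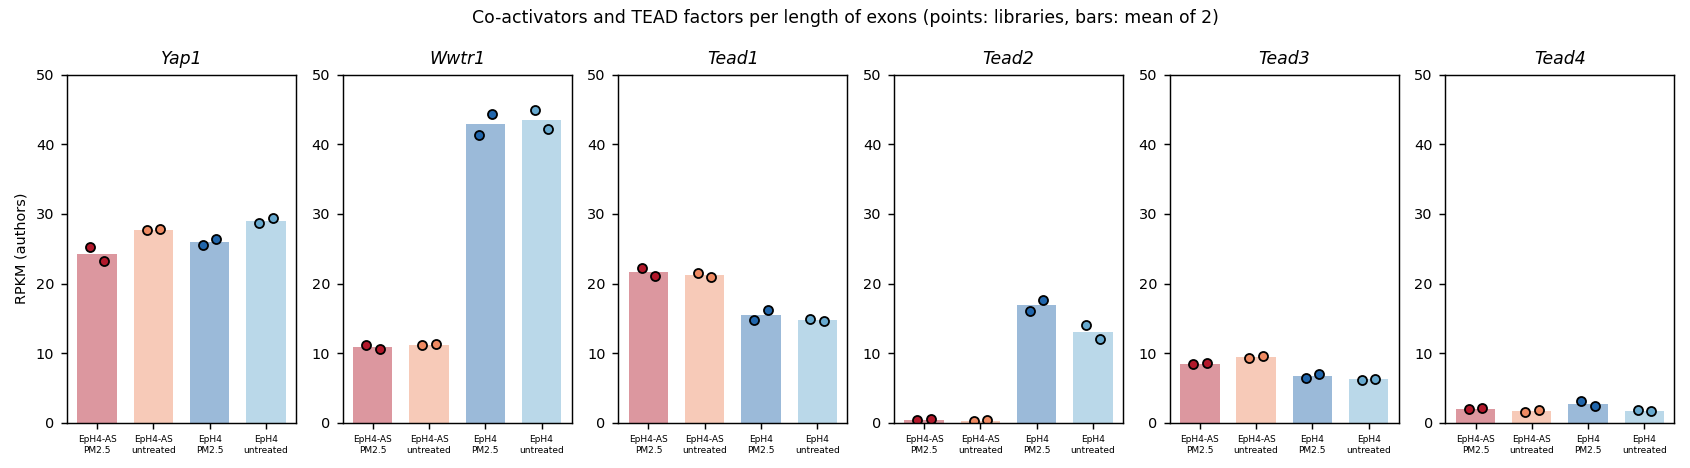
RPKM, as deposited, of the co-activators Yap1 and Wwtr1 and of Tead1 to Tead4 in each library (points) with the mean of 2 libraries (bars), on a common linear axis. Yap1 is at 23.2 to 29.3 RPKM in all groups, Wwtr1 is at 10.7 to 11.3 RPKM in EpH4-AS and 41.3 to 44.9 RPKM in EpH4, and Tead2 is near 0 in EpH4-AS.

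Among the targets, Ccn1 and Ankrd1 were lower in EpH4-AS while Ccn2 was higher, so the 3 classical readouts did not move together between the lines. Ccn1 was at 42.2 and 39.9 CPM in untreated EpH4-AS and at 179 and 218 CPM in untreated EpH4, 4.83-fold lower in EpH4-AS (log2 -2.27, SE 0.10, adjusted p = 7.74e-12). Ankrd1 (ENSMUSG00000024803, chromosome 19, 36089361 to 36097499, minus strand) was at 0.602 and 1.01 CPM in untreated EpH4-AS and at 23.8 and 29.1 CPM in untreated EpH4. It was 32.7-fold lower in EpH4-AS (log2 -5.03, SE 0.36, adjusted p = 2.15e-11), a ratio that rests on 10 and 16 counts in untreated EpH4-AS. Ccn2 was at 20.2 and 17.3 CPM in untreated EpH4-AS and at 1.53 and 1.43 CPM in untreated EpH4, 12.6-fold higher in EpH4-AS (log2 3.66, SE 0.27, adjusted p = 6.17e-10). In RPKM, Ccn1 was 2.96 and 3.28 times the level of Ccn2 in untreated EpH4-AS libraries and 166 and 215 times in untreated EpH4 libraries. With PM2.5 the ratio was 1.21 and 1.54 in EpH4-AS and 104 and 83.4 in EpH4.

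Amotl2, Axl, Ajuba and Lats2 differed by smaller factors than Wwtr1, Ccn1, Ccn2 and Ankrd1. Amotl2 was at 106 and 105 CPM in untreated EpH4-AS and at 44.7 and 54.7 CPM in untreated EpH4 (2.13-fold, adjusted p = 5.05e-09), a gap that was 1.48-fold with PM2.5 (adjusted p = 1.09e-05). Axl was at 687 and 697 CPM in untreated EpH4-AS and at 401 and 347 CPM in untreated EpH4 (1.85-fold, adjusted p = 1.14e-08), and with PM2.5 the gap was 1.21-fold (adjusted p = 0.00164). Ajuba was at 56.5 and 60.5 CPM in untreated EpH4-AS and at 34.0 and 36.3 CPM in untreated EpH4, 1.66-fold higher in EpH4-AS (adjusted p = 3.77e-08) and 1.38-fold higher with PM2.5 (adjusted p = 5.03e-06). Lats2 (ENSMUSG00000021959, chromosome 14, 57927119 to 57995845, minus strand), one of the kinases that inhibit YAP and also a target, was at 32.0 and 34.8 CPM in untreated EpH4-AS and at 60.3 and 70.3 CPM in untreated EpH4, 1.96-fold lower in EpH4-AS (adjusted p = 5.58e-08). All 10 members were called in both comparisons of the lines, 5 higher and 5 lower in each. This is close to the background, since 43.6% of all genes were higher and 45.7% lower between the untreated lines, and 43.5% were higher and 45.5% lower between the exposed lines. Each member had the same direction in both comparisons.

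**Figure D4:**
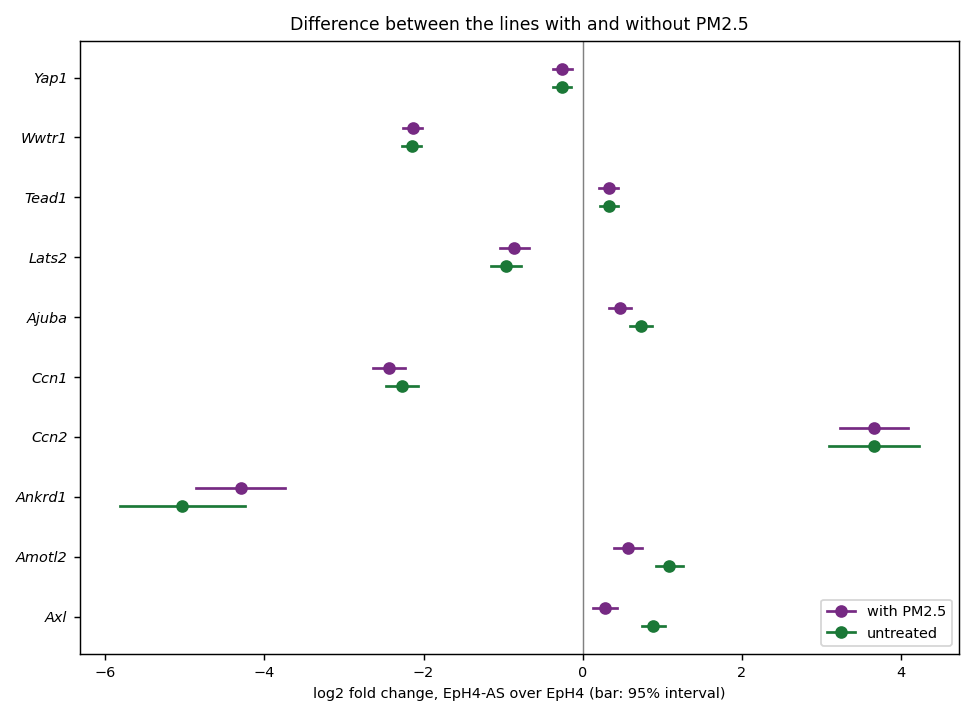
Log2 fold change of EpH4-AS over EpH4 for each gene with PM2.5 (purple) and untreated (green), with 95% intervals from the fit. Ccn2 lies at 3.66 on both rows, Ankrd1, Ccn1 and Wwtr1 lie below -2, and the gaps of Amotl2 and Axl are smaller with PM2.5.

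Ordered by RPKM, Axl led the members in 3 groups, at 137 ± 2.28 RPKM in EpH4-AS with PM2.5, 153 ± 3.01 RPKM in untreated EpH4-AS and 101 ± 8.34 RPKM in EpH4 with PM2.5 (SD, n = 2). In untreated EpH4, Ccn1 (81.1 ± 9.83 RPKM) and Axl (72.2 ± 8.68 RPKM) overlapped at the top. The lowest member was Ankrd1 in both EpH4-AS groups (0.68 ± 0.00327 RPKM with PM2.5 and 0.357 ± 0.131 RPKM untreated) and Ccn2 in both EpH4 groups (0.941 ± 0.246 RPKM with PM2.5 and 0.427 ± 0.0265 RPKM untreated). Other neighbours in the order whose libraries overlapped were Ccn2 and Amotl2 in EpH4-AS with PM2.5, Amotl2 and Ccn1 in untreated EpH4-AS, and Ajuba, Amotl2 and Lats2 in untreated EpH4. Over all 8 libraries, Ankrd1 spanned the widest range among the members, 57.8-fold from its lowest to its highest CPM, and Tead1 the narrowest, 1.35-fold.

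The wider pathway was described with lists that include members, and their counts are read against the shares of all genes tested. Those shares were 6.39% higher and 4.75% lower in EpH4-AS and 14.3% higher and 12.9% lower in EpH4. The lists, like the members, were chosen with earlier results of these data known. Their counts are therefore descriptions and no test of the lists. In the list of 10 co-activators and TEAD factors, 9 were tested. In EpH4-AS 0 were called with PM2.5 by edgeR and 0 by DESeq2, and 1 (Yap1) had an unadjusted p below 0.05, while in EpH4 2 rose (Tead2 and Tead4) and 1 fell (Yap1). Of 14 genes of the Hippo kinase module, Sav1, a scaffold of the kinases, rose in EpH4-AS (log2 0.22, adjusted p = 0.037) and Wwc2, a relative of KIBRA, fell (log2 -0.24, adjusted p = 0.017). In EpH4 the kinase gene Taok2 rose (log2 0.25, adjusted p = 0.00442) and 0 fell by edgeR or DESeq2, with 1 lower at an unadjusted p below 0.05. The Sav1 call was lost when any single EpH4-AS library was left out, and the Wwc2 call without either untreated library or PM2.5 replicate 2 of EpH4-AS. Library totals, DESeq2's Wald test and both limma-trend fits also lost the Sav1 call. In EpH4, 2 kinase module genes were higher without untreated replicate 1, untreated replicate 2 or PM2.5 replicate 1, and 2 were lower without untreated replicate 1.

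Of 10 junction and adaptor regulators, 9 were tested, and 4 fell with PM2.5 in EpH4-AS, beside 4.75% of all genes tested. These were Amotl2, Amotl1 (log2 -0.34, SE 0.05, adjusted p = 0.000574), Amot (log2 -0.31, SE 0.08, adjusted p = 0.0281) and Frmd6 (log2 -0.35, SE 0.05, adjusted p = 0.00082), which is a FERM protein upstream of the kinases. No member of the list rose, with 0 higher by edgeR, by DESeq2 or at an unadjusted p below 0.05. Amotl1 was at 335 and 334 CPM in EpH4-AS with PM2.5 and at 436 and 414 CPM in untreated EpH4-AS. Amot was at 31.0 and 31.9 CPM in EpH4-AS with PM2.5 and at 37.0 and 41.1 CPM in untreated EpH4-AS. All 3 angiomotin genes were thus lower, and each kept its direction in 17 of 17 alternatives, but the Amot call was lost when any single EpH4-AS library was left out. DESeq2's Wald test and both limma-trend fits lost the Amot call too. In EpH4, Amotl1 (log2 -0.25, adjusted p = 0.00209), Frmd6 (log2 -0.28, adjusted p = 0.000662) and Wtip (log2 -0.36, adjusted p = 0.000429), a LIM protein related to Ajuba, fell. Ajuba and Ptpn14, a phosphatase that binds YAP, rose, with Ptpn14 at 176 and 179 CPM in EpH4 with PM2.5 and at 131 and 135 CPM in untreated EpH4 (log2 0.42, SE 0.05, adjusted p = 3.57e-05). The list's median log2 fold change was -0.31 in EpH4-AS and 0.0062 in EpH4, beside 0.0025 and 0.0044 over all genes tested. The PM2.5 effect differed between the lines for Ptpn14 (log2 -0.47, SE 0.07, adjusted p = 0.000591) as well as for Amotl2.

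A YAP/TAZ target signature of 22 genes, known from human tumours, had 21 genes tested, of which 6 are members. In EpH4-AS 4 rose with PM2.5 (Ccn2, Gadd45a, Myof and Dock5), beside 6.39% of all genes tested, and 2 fell (Amotl2 and Crim1), beside 4.75%. Gadd45a, a stress-induced gene of DNA damage and growth arrest, was at 431 and 411 CPM in EpH4-AS with PM2.5 and at 219.9 and 210.2 CPM in untreated EpH4-AS (log2 0.97, SE 0.08, adjusted p = 7.56e-06). Crim1, a transmembrane protein that binds BMPs, was at 542 and 506 CPM in EpH4-AS with PM2.5 and at 783 and 729 CPM in untreated EpH4-AS (log2 -0.53, SE 0.05, adjusted p = 3.23e-05). The Myof and Dock5 calls were both lost without untreated EpH4-AS replicate 1 or 2, which left 2 higher. In EpH4 8 rose, beside 14.3% of all genes tested, among them Ccn2, Axl, Ptpn14, Myof, Nuak2 and Arhgef17. Nuak2, a kinase of the AMPK family, was at 8.50 and 9.45 CPM in EpH4 with PM2.5 and at 4.94 and 4.89 CPM in untreated EpH4 (log2 0.87, SE 0.13, adjusted p = 0.00032). Myof, a membrane repair protein, rose by log2 0.44 in EpH4 (SE 0.06, adjusted p = 0.000104). In EpH4 0 fell by edgeR or DESeq2, beside 12.9% of all genes by edgeR, and 1 was lower at an unadjusted p below 0.05, while 3 were called lower without untreated EpH4 replicate 1 and 1 without PM2.5 replicate 1 of EpH4. The list's median was -0.04 in EpH4-AS and 0.13 in EpH4.

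The PM2.5 effect differed between the lines for 8 of the 21 signature genes, with 2 higher in EpH4-AS relative to EpH4 (Gadd45a and Dock5), beside 7.6% of all genes tested, and 6 lower, beside 6.49%, among them Axl, Amotl2, Ptpn14, Crim1 and Arhgef17. For Gadd45a the difference was log2 1.13 (SE 0.12, adjusted p = 6.89e-05), and its levels in EpH4 overlapped, at 202 and 173 CPM with PM2.5 and 189 and 231 CPM untreated. Those for Gadd45a, Axl and Ptpn14 were called with each library left out in turn. With untreated EpH4-AS replicate 1 or 2 left out, 1 was higher and 3 were lower, and 1 was higher without untreated EpH4 replicate 2, PM2.5 replicate 2 of EpH4 or PM2.5 replicate 1 of EpH4-AS.

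Between the untreated lines, 9 signature genes were higher in EpH4-AS and 10 lower, which is 42.9% and 47.6% of those tested beside 43.6% and 45.7% of all genes. The list's median was -0.22 beside -0.05 over all genes. Crim1 was at 783 and 729 CPM in untreated EpH4-AS and at 79.9 and 80.6 CPM in untreated EpH4 (log2 3.24, SE 0.06), while Nt5e, which encodes the ectonucleotidase CD73, was at 4.15 and 4.49 CPM in untreated EpH4-AS and at 253 and 186 CPM in untreated EpH4 (log2 -5.67, SE 0.26). F3, or tissue factor, was at 1.44 and 1.26 CPM in untreated EpH4-AS and at 31.0 and 34.7 CPM in untreated EpH4 (log2 -4.59, SE 0.25). Of the kinase module, 6 were higher and 6 lower in untreated EpH4-AS, with Taok3 at log2 2.21, Wwc1 at -3.66, Wwc2 at 1.57 and Nf2, the merlin gene, at -1.57. Of the junction and adaptor list, 7 were higher and 2 lower, and with PM2.5 6 were higher and 2 lower. Of the co-activator list, 2 were higher and 5 lower untreated, and 3 higher and 6 lower with PM2.5. With PM2.5, 9 signature genes were higher and 11 lower, and 6 kinase module genes were higher and 5 lower, where 43.5% of all genes were higher and 45.5% lower. Untreated, the kinase module had 42.9% higher and 42.9% lower, near the shares of all genes, as the signature did. The junction and adaptor list had 77.8% higher untreated and 66.7% with PM2.5, of 9 tested. The co-activator list had 55.6% lower untreated and 66.7% with PM2.5, also of 9 tested. Most genes were called between the lines, and whether any list stood apart from them was not tested.

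SRF with its co-activator MRTF, and SMAD factors under TGF-beta, are also known to act on Ccn1 and Ccn2, and their other targets were read beside the members. Of 14 tested SRF and MRTF targets, Fhl2 rose (log2 0.32, adjusted p = 0.0163) and Fhl1 (log2 -0.45, adjusted p = 0.000276) and Vcl (log2 -0.23, adjusted p = 0.0199) fell with PM2.5 in EpH4-AS. The Vcl call was lost without any single EpH4-AS library, and the Fhl2 call without either untreated library or PM2.5 replicate 2 of EpH4-AS. In EpH4 the filamin gene Flna, at 636 and 647 CPM with PM2.5 and 470.0 and 440 CPM untreated (log2 0.496, SE 0.05, adjusted p = 2.65e-05), and the tropomyosin gene Tpm1 (log2 0.27, adjusted p = 0.00254) rose, and 4 rose without PM2.5 replicate 1 of EpH4. Of the 14, 10 were higher in untreated EpH4-AS than in untreated EpH4 and 4 lower, beside 43.6% and 45.7% of all genes, and these counts were equal with PM2.5.

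Of 7 tested TGF-beta SMAD targets, Ltbp2 (log2 0.73, SE 0.10, adjusted p = 0.000194), Pmepa1 (log2 0.59, adjusted p = 0.00569) and Cdkn1a (log2 0.299, adjusted p = 0.00456) were among those that rose with PM2.5 in EpH4, and Bhlhe40 fell (log2 -0.19, adjusted p = 0.0181). The Bhlhe40 call was lost without replicate 2 of either EpH4 group, and the Pmepa1 call without PM2.5 replicate 2 of EpH4. A fit to 2 groups only also lost Bhlhe40, and limma-trend on log2(RPKM + 0.1) lost Pmepa1. Smad7, the gene of an inhibitory SMAD, rose in EpH4-AS (log2 0.27, adjusted p = 0.0485), a call lost without any single EpH4-AS library or either PM2.5 library of EpH4. The Smad7 call was also lost with DESeq2 size factors, library totals, no filter or a replicate block. DESeq2's Wald test and limma-trend on log2(RPKM + 1) lost it as well. All 7 were lower in untreated EpH4-AS than in untreated EpH4, among them Smad7 (log2 -2.56, SE 0.07, adjusted p = 6.12e-14), beside 45.7% of all genes, and 6 were lower with PM2.5, beside 45.5% of all genes.

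**Figure D5:**
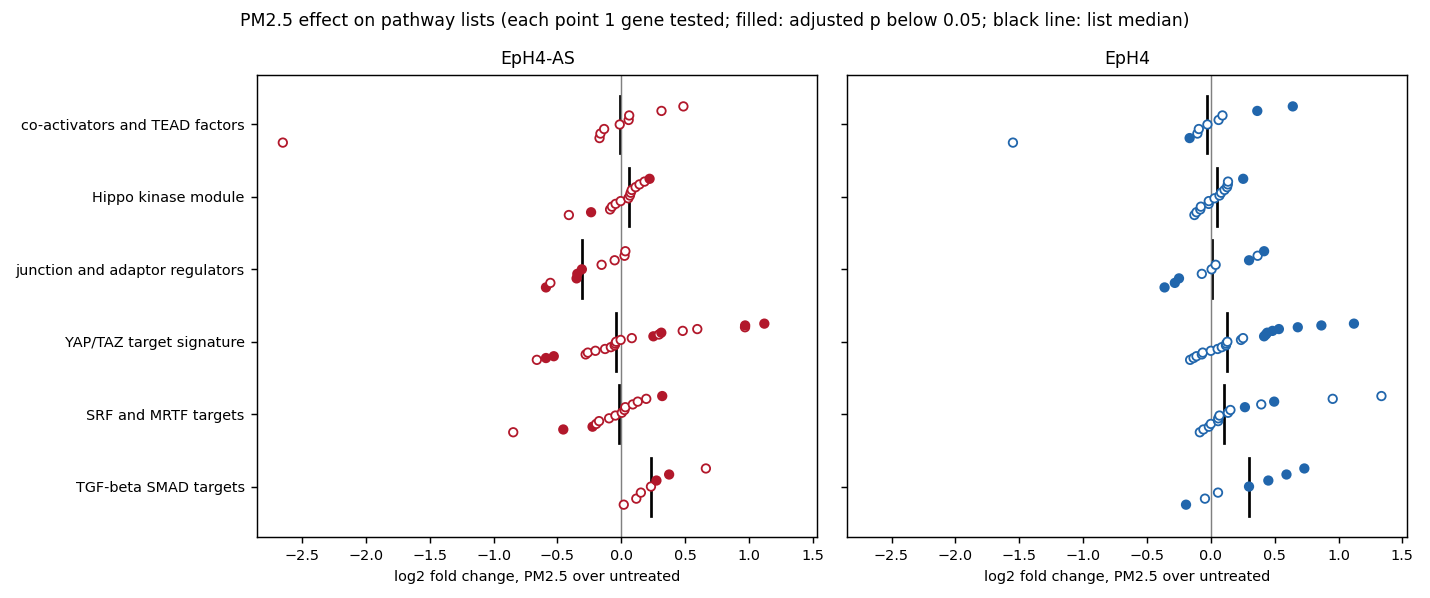
Log2 fold change of PM2.5 over untreated in EpH4-AS (left) and EpH4 (right) for each gene tested in 6 pathway lists, with filled points for an adjusted p below 0.05 and a black line at the list's median. The junction and adaptor list has its median at -0.31 in EpH4-AS and 0.01 in EpH4, and the target signature has 8 filled points above 0 and 0 below in EpH4.

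Genes with the pattern most like a member's over the 8 libraries were found by the root mean square (RMS) difference of centred log2 CPM, leaving out members and predicted models. For Ccn1, whose log2 CPM spanned 2.60, they were Tmem245 (RMS 0.09), Dnm1 (0.10) and Tdrkh (0.10). For Ankrd1, which spanned 5.65, they were Bend5 (0.17), Cdh23 (0.19) and Igf2bp1 (0.197). For Ccn2, which spanned 4.97, the nearest were Spsb4 (0.34), Slc15a3 (0.35) and Myh7b (0.35). The 8 libraries share the difference between the lines, so likeness over them largely follows that difference.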

How the data were processed

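Polyadenylated RNA of 8 spheroid libraries was sequenced, in 1 batch per the labels. The authors deposited raw counts of reads per gene on GRCm39 (build per the submitters' processing notes), with values equal in both count tables, and RPKM values scaled to exon length and library reads. The deposited total gene reads per library, a count wider than exons, gave the share outside exons. No source used here gives the aligner, the counting tool, the strand setting or the annotation release.

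Of 25413 genes, 13716 passed filterByExpr with 99.964% of counts. After TMM scaling, edgeR 4.0.16 under R 4.3.3 gave a quasi-likelihood fit of 4 groups, leaving 4 residual degrees of freedom. The 5 contrasts were tested two-sided, adjusted by Benjamini-Hochberg over all genes tested, threshold 0.05. Standard errors are Wald errors at that fit, and intervals are 95%. RPKM was tested only as an alternative, with limma 3.58.1 on log2(RPKM + 1) and log2(RPKM + 0.1), where low genes are understated. Other alternatives were a filter of 1 CPM in 2 libraries or no filter, scaling by library totals or DESeq2 size factors, the Wald test of DESeq2 1.42.0, a replicate block, 2 groups only, and each library left out. The crossed block was chosen after seeing the data.

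Members and lists were chosen with earlier results of these data known. All members were named, and per list and comparison up to 4 further genes of smallest adjusted p. Dock5 and Fhl1 in the interaction and Bhlhe40 in EpH4 fall outside this rule and were named after their values were seen. Promoters are RefSeq's, GRCm38.p6, and were used as letters only. The result of 1 list gene is not reported here.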

Additional observations from a re-analysis of the deposited data

Results flagged for a closer look

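The PM2.5 effect differed between the lines, by the interaction test of the edgeR fit, for the genes given here. Values are the log2 fold change in EpH4-AS minus that in EpH4. Among the members they were Axl at -0.61 (adjusted p = 0.00105), higher with PM2.5 in EpH4 and not called in EpH4-AS, and Amotl2 at -0.52 (adjusted p = 0.00801), lower with PM2.5 in EpH4-AS and not called in EpH4. Among the regulators they were Ptpn14 at -0.47 and Wwc2 at -0.30. Among the other signature targets they were Gadd45a at 1.13, Crim1 at -0.39 and Arhgef17 at -0.57. Among the SRF targets they were Flna at -0.49, Vcl at -0.28, Actn1 at -0.33 and Fhl2 at 0.41, and among the SMAD targets Bhlhe40 at 0.31 and Smad7 at 0.32. The calls of Axl, Ptpn14, Gadd45a and Flna held with each of the 8 libraries left out in turn, with adjusted p up to 0.0177, 0.0148, 0.00259 and 0.0192. That of Crim1 was lost without untreated EpH4-AS replicate 1 (adjusted p = 0.07). Those of Amotl2, Arhgef17 and Bhlhe40 were lost without either untreated library or PM2.5 replicate 1 of EpH4-AS, and that of Fhl2 without either untreated library or PM2.5 replicate 2 of EpH4-AS. Wwc2 lost its call without either untreated library of EpH4-AS or PM2.5 replicate 2 of either line, and Vcl without any EpH4-AS library or PM2.5 replicate 2 of EpH4. Actn1 kept its call without replicate 1 of either EpH4 group alone, and Smad7 without untreated EpH4 replicate 1 alone. Smad7 also lost it with DESeq2 size factors, library totals, a replicate block, DESeq2's Wald test and both limma-trend fits. Both limma-trend fits also lost Arhgef17 and Actn1, that on log2(RPKM + 0.1) lost Wwc2, and DESeq2's Wald test lost Fhl2. The signature gene Dock5 (0.31, adjusted p = 0.0262) and the SRF target Fhl1 (-1.79, adjusted p = 0.0407) were called too, outside the rule for named genes in this comparison. Dock5 lost its call without either untreated library or PM2.5 replicate 1 of EpH4-AS, and without replicate 2 of either EpH4 group. DESeq2's Wald test and both limma-trend fits lost it too. Fhl1 was higher in EpH4-AS than in EpH4 by log2 9.85 untreated and 8.06 with PM2.5. With PM2.5 it was called lower in EpH4-AS (log2 -0.45) and was not called in EpH4. Its interaction call was kept without untreated EpH4 replicate 2 alone. DESeq2's Wald test lost the interaction call too. With 2 libraries a group, no library was tested for standing apart within its group.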

How the results depend on the processing

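Members called with PM2.5 numbered 4 in EpH4-AS, against 2, in a fit to 2 groups only (Yap1 and Axl added) and with limma-trend on log2(RPKM + 0.1) (Yap1 and Ankrd1 added), and 2 in EpH4, against 4, with limma-trend on log2(RPKM + 1) (Ccn2 and Yap1 lost). With 1 library left out they were 2 to 3 in EpH4-AS, 3 to 6 in EpH4, 1 to 3 in the interaction and 10 to 10 in both line comparisons. The cause was not tested. The replicate numbers did not pair the libraries, with correlations of their deviations of -0.101 to 0.0646. A replicate block left 3 members called in EpH4, since Yap1 was lost (log2 -0.17, adjusted p = 0.0553), and changed no other member's call. A crossed block, chosen after seeing the data, called 5. Of 850 fold changes of members under alternatives, 779 kept their direction and side of the threshold. Both comparisons of the lines are in this pool, where all 10 members were called and only the Yap1 call was lost in any alternative. All other changes were in the PM2.5 effects and the interaction. The 36 that reversed belonged to fold changes that were not called. In the interaction, Ccn2 was at 0.0139 with no filter, 0.5315 on log2(RPKM + 1) and 0.1047 on log2(RPKM + 0.1), and Tead1 at 0.0109 with no filter. There Yap1 was at -0.0062 with DESeq2 size factors, -0.0328 by library totals, -0.0061 in the DESeq2 Wald test, -0.0008 with the 1 CPM filter, -0.0312 on log2(RPKM + 1) and -0.0327 on log2(RPKM + 0.1), and Wwtr1 at -0.0206 by library totals, -0.0167 on log2(RPKM + 1) and -0.0195 on log2(RPKM + 0.1). With 1 library left out, fold changes in EpH4-AS ran over -0.0320 to 0.0361 for Wwtr1 and -0.1036 to 0.1172 for Lats2. In EpH4 they ran over -0.0517 to 0.2330 for Ccn1, -0.2137 to 0.0818 for Amotl2, -0.0698 to 0.0142 for Wwtr1 and -0.2222 to 0.0013 for Lats2. In the interaction they ran over -0.2449 to 0.2741 for Ccn2, -0.0410 to 0.0864 for Yap1, -0.0271 to 0.0693 for Wwtr1, -0.0565 to 0.0583 for Tead1 and -0.0106 to 0.2366 for Lats2.

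Over all genes, the 1529 calls of PM2.5 in EpH4-AS became 363 and 372 without untreated EpH4-AS replicate 1 and 2, and 695 and 490 without PM2.5 replicate 1 and 2 of EpH4-AS. They were 2995 in a fit to 2 groups only, and the 3726 calls in EpH4 became 2451 without untreated replicate 2 and 2145 without PM2.5 replicate 2 of EpH4. DESeq2's Wald test called 1071 genes in EpH4-AS and 2330 in EpH4. The interaction called 1042 higher and 890 lower after TMM, but 838 higher and 1100 lower by library totals. Depth limits Ankrd1 in EpH4-AS and Ccn2 in EpH4 most, with under 100 counts in each library.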
